A study of Mus musculus with 6 samples.

Results

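Venular and general endothelial genes are described here in 6 mouse neurofibromas, benign tumours of peripheral nerve. The genes are Ackr1, Thbd, Selp, Sele, Vwf, Plvap, Pecam1, Emcn, Cd34 and Procr, 10 of the 24421 gene symbols in the count table. They were selected on measured values of this table, because Ackr1 was higher and Thbd lower in 1 group of tumours while a wider endothelial list held its level. The difference between groups is therefore given as a description. The group miR155KO_Nf1KO held 3 tumours (MiRNC149, MiRNC640, MiRNC670) that lacked the microRNA miR-155 as well as Nf1. The group Nf1KO held 3 tumours (Nf803, Nf809, Nf827) that had the Nf1 deletion alone. All 6 came from C57BL/6J mice of the genotype Nf1fl/fl; DhhCre, in which Cre is made where the Schwann lineage gene Dhh is active. Floxed Nf1, which encodes a brake on Ras, is therefore removed in that lineage and not by design in blood vessels. The mice received no drugs and were kept to a set time point or a limit of tumour size. Their age is not given, and the labels number the tumours without saying that each came from its own animal. The stated purpose of the comparison was a search for miR-155 targets.

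Venules are the vessels through which leukocytes leave the blood. Their endothelium stores P-selectin (Selp) and von Willebrand factor (Vwf) in Weibel-Palade bodies, makes E-selectin (Sele) when stimulated by cytokines, and carries Ackr1, an atypical receptor that binds chemokines without signalling through G proteins. Thrombomodulin (Thbd) and the endothelial protein C receptor (Procr) together let thrombin activate protein C, which limits clotting. Plvap, Pecam1, Emcn and Cd34 are surface proteins used as general endothelial markers, each with expression outside vessels or with a preference for some vessels.

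The microRNA removed in 1 group is shown because the members were searched for its sites. Its mature sequence, from RefSeq on GRCm38.p6 at chr16:84714143-84714165 on the plus strand, has the seed (bases 2 to 8) in capitals.
mmu-miR-155-5p: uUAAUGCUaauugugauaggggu
Each gene's longest 3′ UTR in GENCODE M21 (GRCm38) was searched for AGCATTAA, for AGCATTA and for GCATTAA. None of the 10 members had a site, against 1988 of 14027 tested genes with a 3′ UTR (14.2%). The count of members stayed at 0 when any annotated 3′ UTR was read (15.2% of tested genes) and when the 6-base site GCATTA was added (21.9%).

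Promoters (250 bases before to 50 bases after the start, RefSeq on GRCm38.p6) were on file for 6 members: Ackr1, Selp, Sele, Emcn, Cd34 and Procr. Those of Selp and Sele are shown because these selectin genes are neighbours on chromosome 1, 57586 bases apart on the plus strand, and their transcripts differed in level and spread. Capitals mark matches on either strand to 5 motifs, searched as letters. Factors of the ETS family were given the letters AGGAAG. The KLF family was given CACCC, and GATA factors were given the letters AGATAA. Forkhead (FOX) factors were given the letters TGTTTAC. For NF-kB the letters were GGNNTTTCC.
Selp, chr1:164115014-164115313: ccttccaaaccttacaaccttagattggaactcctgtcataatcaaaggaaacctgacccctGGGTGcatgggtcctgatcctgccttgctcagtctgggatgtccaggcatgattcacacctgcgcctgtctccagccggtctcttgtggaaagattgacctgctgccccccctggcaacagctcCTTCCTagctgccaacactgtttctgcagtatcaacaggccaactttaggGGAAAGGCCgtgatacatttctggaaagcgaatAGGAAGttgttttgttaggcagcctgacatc
Sele, chr1:164047984-164048283: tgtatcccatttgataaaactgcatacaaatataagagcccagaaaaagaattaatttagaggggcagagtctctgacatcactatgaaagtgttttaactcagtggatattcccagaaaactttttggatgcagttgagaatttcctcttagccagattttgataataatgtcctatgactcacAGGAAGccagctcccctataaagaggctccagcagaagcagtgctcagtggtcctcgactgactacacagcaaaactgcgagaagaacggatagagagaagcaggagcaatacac
The Selp window held 2 ETS matches, 1 KLF match in reverse and 1 reverse NF-kB match whose first base is at position -14 from the start, whereas the Sele window held 1 ETS match. No marked match overlapped another. ETS letters were found in 5 of the 6 members' promoters (35.4% of 32851 promoters), KLF letters in 4 (57.5%), GATA letters in 1, Ackr1 (11.2%), NF-kB letters in 1, Selp (5.82%), and FOX letters in none (3.65%). These are letter matches and not sites shown to be bound. No match of a motif says only that its letters are not in this window. The letters chosen cover only some spellings of each motif. The Sele window without a marked NF-kB match is therefore not shown to lack an NF-kB site.

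Totals ran from 13061129 to 16333181 reads per tumour, and all 10 members were among the 15604 genes tested. The read counts of the miR-155 host gene Mir155hg were 5, 3 and 1 in the miR155KO_Nf1KO tumours and 57, 66 and 71 in the Nf1KO tumours, in the order given above, so the libraries matched their labels at this locus. Nf1 (341 ± 43.3 against 324 ± 33.2 CPM, that is reads per 1e6 after TMM scaling, SD, n = 3) and Dhh (612 ± 55.6 against 627 ± 137 CPM) overlapped between groups. Endothelial transcripts were present: all 21 genes of a list of other pan-endothelial transcripts, such as Cdh5 and Kdr, passed the filter on low counts. This does not show which cells the reads of the 10 members came from. The p-values below measure only the spread between these tumours.

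Of the 10 members, 1 was called higher in miR155KO_Nf1KO (Ackr1, against 5.22% of all tested genes called higher by edgeR's quasi-likelihood test at a Benjamini-Hochberg adjusted p under 0.05) and 1 was called lower (Thbd, against 4.74%). Either call was made for 9.96% of tested genes. The 3 miR155KO_Nf1KO tumours lay above all 3 Nf1KO tumours for 1 member, Ackr1 (16.3% of tested genes), and below them for 4, Thbd, Selp, Plvap and Cd34 (16.3%). The other 5 members overlapped between groups. Because this contrast chose the members, nothing is read from these shares. Log2 fold changes of miR155KO_Nf1KO over Nf1KO were positive for 3 members and negative for 7, with a median of -0.44, and the median of all tested genes was 0.0068. In bulk tumour RNA, fewer cells of a type and less RNA per cell cannot be told apart.

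**Figure D1:**
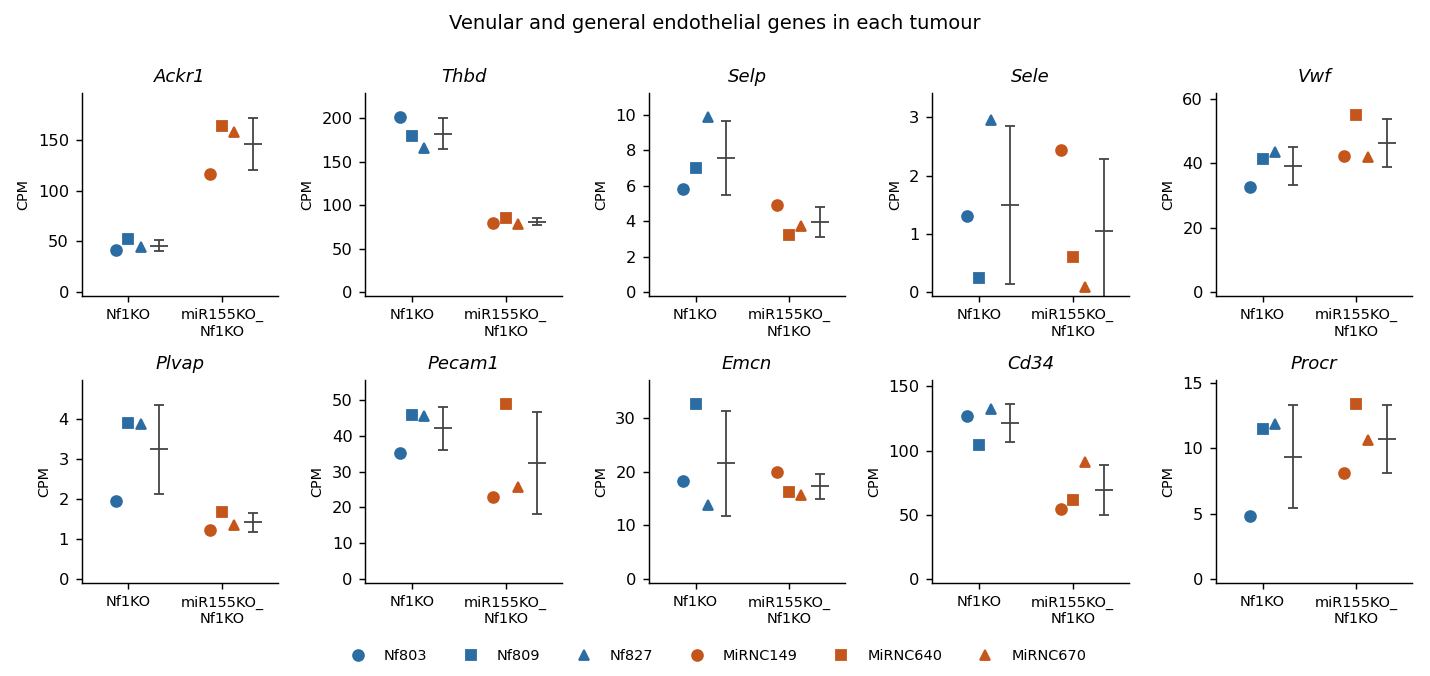
CPM of the 10 members in each tumour (points, 1 panel per gene with its own axis from 0) with the mean and SD of each group of 3 tumours beside them; SD bars are cut at the lower edge. Ackr1 lies between 41.2 and 52.5 CPM in Nf1KO and between 117 and 164 CPM in miR155KO_Nf1KO, Thbd is the reverse, and the groups overlap for Sele, Vwf, Pecam1, Emcn and Procr.

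**Figure D2:**
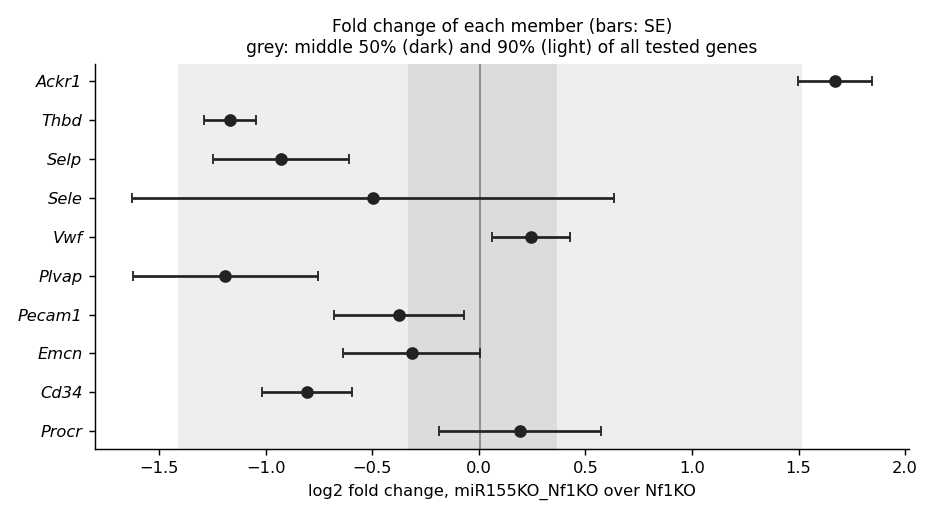
Log2 fold change of each member, miR155KO_Nf1KO over Nf1KO, with its SE from edgeR, over the middle 50% and 90% of all tested genes in grey. Ackr1 (1.67) lies above the grey bands, Thbd (-1.17) and Plvap (-1.19) lie low within the 90% band, and Sele has the widest error (SE 1.13).

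Ackr1 was the member with the largest fold change. Its level was 117, 164 and 158 CPM in tumours MiRNC149, MiRNC640 and MiRNC670, and 41.2, 52.5 and 44.3 CPM in tumours Nf803, Nf809 and Nf827. Every miR155KO_Nf1KO tumour lay above the highest Nf1KO tumour, and tumour MiRNC149 was the lowest of its group. The group mean was 3.18-fold higher in miR155KO_Nf1KO (146 ± 25.5 against 46.0 ± 5.84 CPM, SD, n = 3; log2 fold change 1.67, SE 0.17). Of the tested genes, 96.2% had a lower log2 fold change. Over the 14 alternative analyses the log2 fold change ran from 1.54 to 1.82.

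The Ackr1 gene (GENCODE M21 on GRCm38, chromosome 1, 173331886 to 173333750, minus strand) shares sequence with a neighbour. Cadm3, which encodes a cell adhesion molecule of neurons and their Schwann cells, lies at 173333258 to 173367695 on the same strand, and 361 of the 1405 exon bases of Ackr1 (25.7%) are exon bases of Cadm3 too. The RefSeq span of Cadm3 begins at 173331892 and so covers nearly all of Ackr1. How strand and reads in overlapping genes were handled is not given in the sources used, so the Ackr1 count is uncertain. The Ackr1 promoter window also lies in this shared stretch and is not printed.

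Cadm3, chosen after its values were seen, had 664, 931 and 1016 CPM in tumours MiRNC149, MiRNC640 and MiRNC670 and 312, 329 and 314 CPM in tumours Nf803, Nf809 and Nf827. It rose (870 ± 184 against 318 ± 9.40 CPM, SD, n = 3; log2 fold change 1.45, SE 0.17; edgeR adjusted p = 0.0186), and the order of the miR155KO_Nf1KO tumours differed from that of Ackr1 only in its upper pair. For every 100 Cadm3 reads there were 17.6, 17.6 and 15.6 Ackr1 reads in the miR155KO_Nf1KO tumours and 13.2, 16.0 and 14.1 in the Nf1KO tumours. These ratios overlapped between groups (16.9 ± 1.15 against 14.4 ± 1.40), while the Ackr1 level itself did not. The part of Cadm3 transcripts in the Ackr1 count was not tested.

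**Figure D3:**
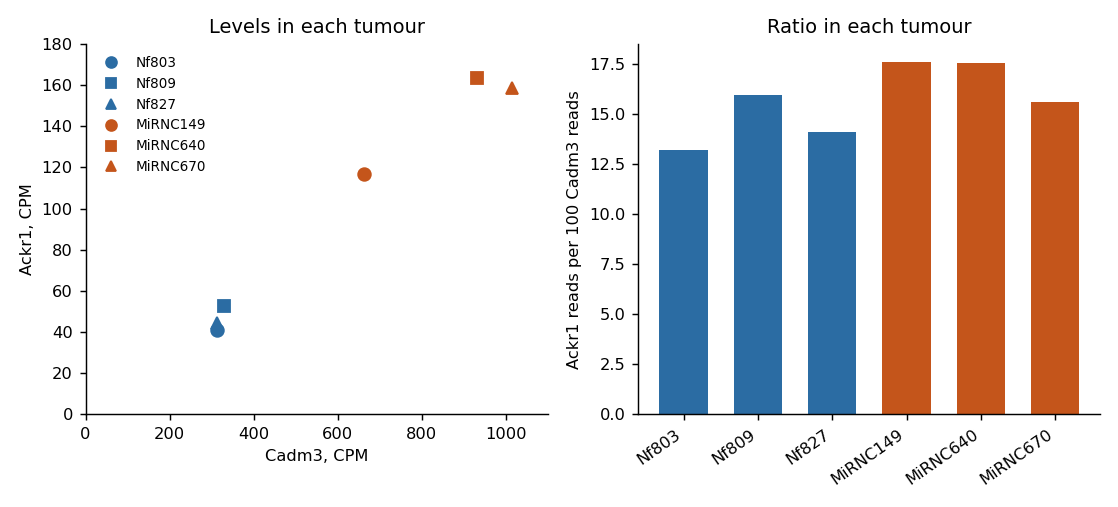
Left, Ackr1 CPM (vertical axis) against Cadm3 CPM (horizontal axis) in each tumour; right, Ackr1 reads per 100 Cadm3 reads in each tumour. The 3 Nf1KO tumours cluster at low values of both genes and the 3 miR155KO_Nf1KO tumours at high values, whereas the ratio runs from 13.2 to 17.6 with overlapping groups.

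Likeness to Ackr1 was measured as the root mean square difference of log2 CPM over the 6 tumours after centring each gene. With predicted genes (Gm numbers, Rik and LOC names) left out, the 3 nearest were Ppp1r1a, a protein phosphatase inhibitor subunit (0.0941), Ebf3, a transcription factor (0.118), and Chst2, a sulfotransferase (0.135). All 3 were called higher by edgeR. Ranked among all 15603 other tested genes, predicted genes included, Cadm3 was the 7th nearest (0.152). Ebf3, for example, had 71.1, 102 and 115 CPM in tumours MiRNC149, MiRNC640 and MiRNC670 and 28.9, 39.3 and 27.7 CPM in tumours Nf803, Nf809 and Nf827. With 6 tumours in 2 separate groups, this likeness mostly describes a shared difference between the groups.

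Thbd differed in the opposite direction. Its level was 79.0, 85.8 and 78.3 CPM in tumours MiRNC149, MiRNC640 and MiRNC670 and 202, 180 and 166 CPM in tumours Nf803, Nf809 and Nf827. The groups lay far apart, with a coefficient of variation of 5.09% and 10% within them, the smallest of the members in both groups. The mean was 2.25-fold lower in miR155KO_Nf1KO (81.0 ± 4.12 against 182 ± 18.3 CPM, SD, n = 3; log2 fold change -1.17, SE 0.12), with a range of -1.24 to -1.12 over the alternatives. The gene lies on chromosome 2 (148404466 to 148408188, minus strand), and no annotated gene overlaps it. The ratio of Ackr1 to Thbd reads was 1.48, 1.91 and 2.02 in the miR155KO_Nf1KO tumours and 0.204, 0.292 and 0.268 in the Nf1KO tumours.

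With predicted genes left out as for Ackr1, the genes most like Thbd were Mmp19, a matrix metalloproteinase (root mean square difference 0.110), Anpep, the aminopeptidase CD13 (0.115), and Pdpn, podoplanin (0.134). All 3 were called lower by edgeR. Pdpn marks lymphatic endothelium and also fibroblasts. Thbd is known in dendritic cells, monocytes, mesothelium and keratinocytes as well as vessels, so those lists are given beside it. Of 9 tested dendritic cell genes 6 fell and none rose. The summed levels of the list were 325, 197 and 229 CPM in tumours MiRNC149, MiRNC640 and MiRNC670 and 1402, 667 and 2608 CPM in tumours Nf803, Nf809 and Nf827. Most of each sum came from H2-Ab1, an MHC class II gene (226, 142 and 168 CPM against 1108, 441 and 2103 CPM, in the same order). Of 10 macrophage and monocyte genes 6 fell and none rose, with summed levels of 441 to 876 CPM against 1320 to 2438 CPM.

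Among mesothelial and keratinocyte genes 4 were tested and 1, Wt1, rose (3.06 ± 1.47 against 0.116 ± 0.0886 CPM, SD, n = 3; edgeR adjusted p = 0.0212), with summed levels of 4.20 to 13.1 CPM in all tumours. Lrrn4, next in p, was not called (1.77 ± 1.51 against 0.598 ± 0.188 CPM). Krt5 had no read in any tumour, which allows up to 0.185 to 0.238 CPM by counting error alone (3 reads per library). Krt14 had no read in 5 of 6, and Upk3b had none in 5 of 6. The part of these cells in the Thbd level was not tested.

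Procr, the partner of Thbd in protein C activation, overlapped between groups. Its level was 8.11, 13.4 and 10.6 CPM in tumours MiRNC149, MiRNC640 and MiRNC670 and 4.79, 11.4 and 11.9 CPM in tumours Nf803, Nf809 and Nf827. Tumour Nf803 stood below the other 5 tumours. The log2 fold change was 0.19 (SE 0.38), and its sign turned when tumour MiRNC640 (-0.0023) or tumour Nf803 (-0.15) was left out. Procr lies on chromosome 2 (155751117 to 155755471, plus strand).

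Selp, the stored selectin, was low in every tumour and lower in miR155KO_Nf1KO. Its level was 4.89, 3.24 and 3.72 CPM in tumours MiRNC149, MiRNC640 and MiRNC670 and 5.81, 6.99 and 9.84 CPM in tumours Nf803, Nf809 and Nf827. The groups did not overlap, but tumours MiRNC149 and Nf803 lay close to each other. The mean was 1.91-fold lower (log2 fold change -0.93, SE 0.32) and was not called. Selp lies on chromosome 1 (164115264 to 164150026, plus strand). The antisense genes Gm16548 and Gm16587 share 438 (9.93%) and 186 (4.21%) of its 4413 exon bases, and Gm16548 had 2 to 15 reads per tumour. Without strand, reads of a gene and its antisense partner cannot be told apart.

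Sele, the cytokine-induced selectin, was near the limit of these libraries. Its reads numbered 38, 9 and 1 in tumours MiRNC149, MiRNC640 and MiRNC670 and 18, 4 and 44 reads in tumours Nf803, Nf809 and Nf827. Each group thus held a tumour with few reads and a tumour with 38 or more, and the groups overlapped. The coefficient of variation was 119% in miR155KO_Nf1KO and 90.7% in Nf1KO. The log2 fold change of -0.50 (SE 1.13) turned to 0.45 without tumour Nf827 and to 0.31 with sex as a covariate. Sele lies on chromosome 1 (164048234 to 164057677, plus strand).

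Vwf, the clotting protein that forms Weibel-Palade bodies, overlapped between groups. Its level was 42.2, 55.0 and 42.1 CPM in tumours MiRNC149, MiRNC640 and MiRNC670 and 32.6, 41.2 and 43.7 CPM in tumours Nf803, Nf809 and Nf827. Tumour MiRNC640 was the highest and tumour Nf803 the lowest, and the log2 fold change was 0.25 (SE 0.18). Selp, which shares the storage granule, gave 0.116, 0.0589 and 0.0885 reads per Vwf read in the miR155KO_Nf1KO tumours and 0.178, 0.169 and 0.225 in the Nf1KO tumours, with no overlap. Vwf lies on chromosome 6 (125546774 to 125686679, plus strand).

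Selp and Vwf are also made by megakaryocytes and carried by platelets, and Pecam1 is found on platelets too. Of 6 tested platelet genes none was called by edgeR (1 lower at an unadjusted p under 0.05, Itgb3, which DESeq2 called and limma voom did not), with a median log2 fold change of -0.044. Their summed level was 68.3, 97.1 and 87.1 CPM in tumours MiRNC149, MiRNC640 and MiRNC670 and 143, 122 and 121 CPM in tumours Nf803, Nf809 and Nf827, most of it from the integrin Itgb3 (67.8 ± 11.5 against 109 ± 25.7 CPM, SD, n = 3), which other cells express too. Itga2b, a platelet integrin and next in p, had 1.93 ± 0.872 against 1.15 ± 0.744 CPM with overlapping groups. It was not called (log2 fold change 0.74, SE 0.63). Pf4 and Gp9 were named outside the rule of smallest p. Pf4, platelet factor 4, lay between 2.25 and 4.55 CPM in all tumours with overlapping groups. Gp9, a platelet glycoprotein, had no read in tumours MiRNC149, Nf803 and Nf827. The part of platelets in the Selp and Vwf levels was not tested.

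Plvap, which forms the diaphragms of fenestrae and caveolae, was counted at 19, 25 and 17 reads in MiRNC149, MiRNC640 and MiRNC670 and at 27, 63 and 58 reads in Nf803, Nf809 and Nf827. In CPM these were 1.22, 1.69 and 1.35 against 1.96, 3.89 and 3.88. The groups did not overlap, but tumour Nf803 was nearer to tumour MiRNC640 than to the other Nf1KO tumours. The mean was 2.29-fold lower in miR155KO_Nf1KO (log2 fold change -1.19, SE 0.44), a fold close to that of Thbd with a wider error, and it was not called. Plvap lies on chromosome 8 (71497765 to 71511752, minus strand). It overlaps Gtpbp3 on the other strand with 0 shared exon bases.

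Pecam1, the junctional adhesion molecule CD31, had 22.9, 48.9 and 25.6 CPM in tumours MiRNC149, MiRNC640 and MiRNC670 and 35.1, 45.7 and 45.5 CPM in tumours Nf803, Nf809 and Nf827. Tumour MiRNC640 was the highest of all 6 while the other miR155KO_Nf1KO tumours were the lowest, so the groups overlapped and the coefficient of variation was 44.1% against 14.4%. The log2 fold change was -0.37 (SE 0.30). Pecam1 lies on chromosome 11 (106654217 to 106750628, minus strand). It is also carried by monocytes, whose genes are given above beside Thbd.

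Emcn, endomucin, a sialomucin of venous and capillary endothelium, had 20.0, 16.3 and 15.7 CPM in tumours MiRNC149, MiRNC640 and MiRNC670 and 18.2, 32.6 and 13.8 CPM in tumours Nf803, Nf809 and Nf827. Tumour Nf809 stood above the other 5 tumours. The log2 fold change of -0.31 (SE 0.32) turned to 0.12 without that tumour. Emcn lies on chromosome 3 (137341067 to 137432185, plus strand).

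Cd34, a sialomucin of endothelium, blood progenitors and fibroblasts, had 55.0, 61.8 and 91.5 CPM in tumours MiRNC149, MiRNC640 and MiRNC670 and 127, 104 and 133 CPM in tumours Nf803, Nf809 and Nf827. The groups did not overlap, and tumour MiRNC670 was the highest of its group. The mean was 1.75-fold lower (log2 fold change -0.81, SE 0.21). It was not called by edgeR with TMM scaling, but it was called lower with upper quartile scaling, with total counts, by DESeq2, by limma voom and without tumour Nf809. Its gene (chromosome 1, 194938819 to 194961279, plus strand) has 148 of 7290 exon bases (2.03%) in common with the antisense gene Gm16897, whose log2 fold change was -0.47.

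Genes of adventitial fibroblasts, which carry Cd34, are given beside it. Of 9 tested, 1 fell, Dpp4 (18.9 ± 7.13 against 67.2 ± 34.9 CPM, SD, n = 3; log2 fold change -1.83, SE 0.43; edgeR adjusted p = 0.0417), and none rose, with a median of -0.62. Ebf2, next in p, had 140 ± 32.6 against 263 ± 63.2 CPM and was not called (log2 fold change -0.91, SE 0.23; edgeR adjusted p = 0.0513). Their summed level was 665, 814 and 793 CPM in tumours MiRNC149, MiRNC640 and MiRNC670 and 1252, 1155 and 1070 CPM in tumours Nf803, Nf809 and Nf827, with no overlap. The part of fibroblasts in the Cd34 level was not tested.

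Levels were compared between genes per length, as RPKM (CPM divided by the union exon length in kilobases). In Nf1KO the order was Thbd (49.0 ± 4.91 RPKM, SD, n = 3), Ackr1 (32.7 ± 4.16), Cd34 (16.7 ± 2.05), Pecam1 (6.75 ± 0.975), Procr (4.61 ± 1.95), Emcn (3.98 ± 1.82), Vwf (2.44 ± 0.362), Selp (1.71 ± 0.470), Plvap (1.63 ± 0.561) and Sele (0.515 ± 0.467). From Pecam1 to Plvap the SD bars of neighbours overlapped. In miR155KO_Nf1KO the order was Ackr1 (104 ± 18.2 RPKM), Thbd (21.8 ± 1.11), Cd34 (9.52 ± 2.66), Procr (5.27 ± 1.30), Pecam1 (5.21 ± 2.30), Emcn (3.20 ± 0.435), Vwf (2.89 ± 0.465), Selp (0.896 ± 0.192), Plvap (0.714 ± 0.121) and Sele (0.359 ± 0.427). There the neighbours from Procr to Vwf and from Selp to Sele had overlapping bars.

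The top pair thus changed places: Thbd was above Ackr1 in Nf1KO and Ackr1 above Thbd in miR155KO_Nf1KO. The low end of the order, Selp, Plvap and Sele, was the same in both groups. With the length of the longest transcript, the levels of Cd34 (22.7 RPKM in miR155KO_Nf1KO, 39.7 in Nf1KO), Pecam1 (9.43 and 12.2), Emcn (4.92 and 6.12) and Vwf (5.26 and 4.43) moved by over 1.5 times. By that length Cd34 stood level with Thbd in miR155KO_Nf1KO and with Ackr1 (39.9) in Nf1KO.

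The members were then set against the other endothelial transcripts of the same tumour, as log2 CPM minus the mean log2 CPM of the 21 other pan-endothelial genes. That mean, relative to its Nf1KO average, was -0.077, 0.83 and 0.21 in tumours MiRNC149, MiRNC640 and MiRNC670 and -0.21, 0.20 and 0.0096 in tumours Nf803, Nf809 and Nf827. Tumour MiRNC640 had the most endothelial transcript of the 6. A higher reference mean lowers every gene of that tumour on this scale.

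Pecam1 overlapped between groups in CPM but not on this scale. It stood 1.06, 1.25 and 0.93 above the reference in tumours MiRNC149, MiRNC640 and MiRNC670 and 1.81, 1.78 and 1.96 above it in tumours Nf803, Nf809 and Nf827. The difference between the group means was -0.77. Tumour MiRNC640, highest in CPM, was among the 3 low tumours once its other endothelial transcripts were counted. This is the same contrast that chose the members, and it has no test.

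Ackr1 stood 3.41, 2.99 and 3.56 above the reference in the miR155KO_Nf1KO tumours (MiRNC149, MiRNC640, MiRNC670) and 2.04, 1.98 and 1.93 above it in the Nf1KO tumours (Nf803, Nf809, Nf827), a difference of 1.34. Thbd stood 2.85, 2.06 and 2.54 above it against 4.33, 3.76 and 3.82, a difference of -1.49. Plvap (-1.39), Selp (-1.22) and Cd34 (-1.15) also lay below with no overlap between groups. The share of all tested genes without overlap on this scale was not computed, so nothing is read from the number of members. Vwf (-0.077) and Procr (-0.051) overlapped, and the sign of each turned in some analyses with 1 tumour left out. Emcn (-0.55) and Sele (-1.0) overlapped too.

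**Figure D4:**
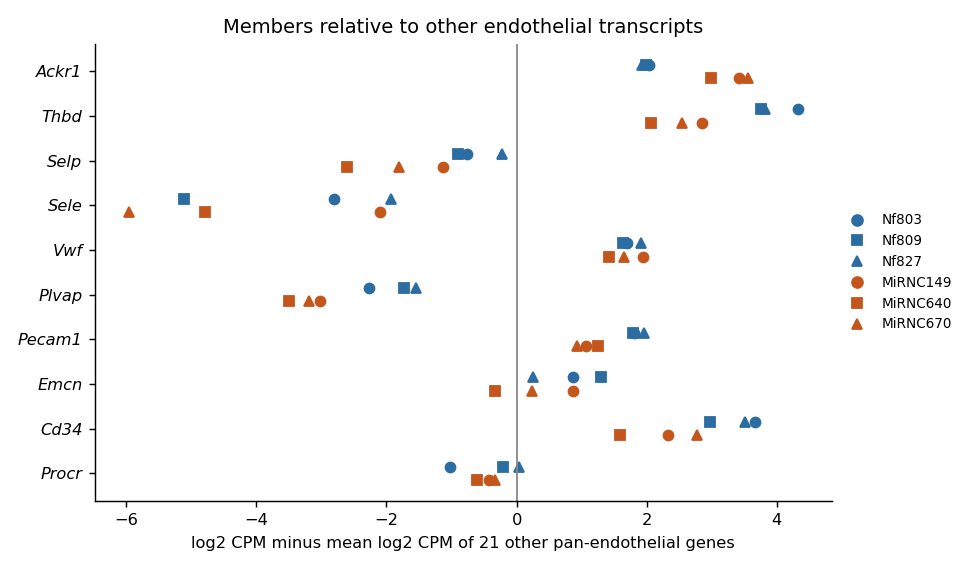
Each member in each tumour (points) as log2 CPM minus the mean log2 CPM of 21 other pan-endothelial genes of that tumour (horizontal axis). Ackr1 is to the right in the 3 miR155KO_Nf1KO tumours, Thbd, Selp, Plvap, Cd34 and Pecam1 are to the left in them, and the groups overlap for Sele, Vwf, Emcn and Procr.

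The wider pathways of the members were read from 13 lists holding 169 genes, of which 151 were tested. edgeR called 3 of them higher and 14 lower, 11.3% against 9.96% of all tested genes, with a median log2 fold change of -0.21. Of the 21 other pan-endothelial genes none was called by edgeR at the adjusted threshold, and their median was 0.39. The 2 with the smallest p, Ecscr, an endothelial migration gene (37.3 ± 16.3 against 12.6 ± 5.15 CPM, SD, n = 3; log2 fold change 1.56, SE 0.43), and Cldn5, a tight junction claudin (2.34 ± 0.688 against 0.835 ± 0.201 CPM; 1.48, SE 0.47), had edgeR adjusted p = 0.0635 and 0.0917. At an unadjusted p under 0.05 edgeR had 4 of the 21 higher and 0 lower, DESeq2 called 1 higher, Ecscr, and limma voom called none.

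Of 7 other venous and venular genes 1 fell and none rose, with a median of -0.44. The one that fell was Icam1, the leukocyte adhesion molecule, at 7.60, 5.34 and 7.13 CPM in tumours MiRNC149, MiRNC640 and MiRNC670 and 18.3, 24.3 and 30.7 CPM in tumours Nf803, Nf809 and Nf827 (log2 fold change -1.87, SE 0.26; edgeR adjusted p = 0.0201). The groups were far apart. Vcam1, an adhesion molecule for leukocyte integrins and next in p, was at 32.8, 25.1 and 21.1 CPM against 34.0, 54.4 and 53.7 CPM (log2 fold change -0.85, SE 0.25). Its groups did not overlap, though tumours MiRNC149 and Nf803 lay close, and it was called lower by DESeq2 but not by edgeR (adjusted p = 0.0755). Nr2f2, the transcription factor that sets venous identity, was at 285, 238 and 252 CPM against 364, 481 and 245 CPM, with overlapping groups (-0.49, SE 0.23). Vcam1 and Nr2f2 were named after their values were seen. Leukocytes also express Icam1, and their part in it was not tested.

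Among vessel types other than venules, 1 of 12 tested capillary and barrier genes fell, Meox2, a homeobox factor (52.4 ± 8.59 against 113 ± 34.3 CPM, SD, n = 3; edgeR adjusted p = 0.0338). This ran against the list, in which 10 of 12 log2 fold changes were positive, with a median of 1.09. At an unadjusted p under 0.05 edgeR had 3 higher and 1 lower, DESeq2 called Rgcc and Mfsd2a higher and Meox2 lower, and limma voom called 1 lower and none higher. The summed level was 1339 CPM in tumour MiRNC640 and 377 to 601 CPM in the other 5, and 850 CPM of the former came from Cd36, a fatty acid transporter that adipocytes also express. Of 11 arterial genes 1 rose, the semaphorin Sema3g (16.3 ± 4.24 against 5.09 ± 1.65 CPM; adjusted p = 0.0268), and 1 fell, Efnb2, the arterial ephrin (56.2 ± 12.4 against 125 ± 14.3 CPM; adjusted p = 0.0236). Of 6 lymphatic genes 1 fell, Pdpn (10.1 ± 1.14 against 22.3 ± 3.50 CPM; edgeR adjusted p = 0.0244). None of 12 mural cell genes was called by edgeR (1 lower at an unadjusted p under 0.05, Cspg4, which DESeq2 called and limma voom did not), and the median was -0.45. The 2 with the smallest p among those were Cspg4 (log2 fold change -0.46, SE 0.14) and Pdgfrb (-0.45, SE 0.19).

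Endothelial transcription factors gave 3 lower of 17 tested and none higher, with a median of -0.30. Those that fell were Lyl1 (5.33 ± 0.641 against 12.8 ± 1.74 CPM, SD, n = 3; log2 fold change -1.26; edgeR adjusted p = 0.0254), Fli1 (23.4 ± 1.71 against 46.5 ± 9.93 CPM; -0.99; adjusted p = 0.0269) and Elk3 (62.1 ± 2.57 against 108 ± 28.6 CPM; -0.80; adjusted p = 0.0491). Lyl1 and Fli1 are known in blood cells too, and the part of those cells was not tested. In the Ccm, Mekk3 and Klf2/4 axis, whose factors Klf2 and Klf4 are known to raise Thbd in endothelium, 1 of 12 rose, Plpp3, listed in the table as Ppap2b (166 ± 23.2 against 105 ± 0.951 CPM; log2 fold change 0.67, SE 0.13; edgeR adjusted p = 0.0277). The list had a median of -0.14, with 8 of 12 log2 fold changes negative, and DESeq2 called Heg1 and Map3k3 lower. Klf2 (log2 fold change -0.0041, SE 0.39) and Klf4 (-0.58, SE 0.24) were not called. Klf2 overlapped between groups. Klf4 did not, at 10.5, 11.9 and 7.37 CPM in tumours MiRNC149, MiRNC640 and MiRNC670 and 12.7, 17.1 and 14.6 CPM in tumours Nf803, Nf809 and Nf827. Of all tested genes, 16.3% lay below in this way. Klf2 and Klf4 were named after their values were seen.

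Partners of Thbd and Procr in coagulation and fibrinolysis gave 1 lower of 15 tested, Tfpi, the tissue factor pathway inhibitor (34.0 ± 3.74 against 61.5 ± 7.78 CPM, SD, n = 3; log2 fold change -0.85, SE 0.16; edgeR adjusted p = 0.0263), and none higher, with a median of -0.85. Weibel-Palade body genes gave 1 higher of 14, Myrip, a linker of granules to actin (10.7 ± 1.90 against 4.65 ± 1.11 CPM; 1.20, SE 0.28; edgeR adjusted p = 0.0413), and a median of -0.013. edgeR called none of the other 13, nor Vwf or Selp, and DESeq2 called Plat, tissue plasminogen activator, lower as well. Of the 15 coagulation and fibrinolysis partners DESeq2 called 7 lower and none higher. Of the 20129 genes to which DESeq2 gave a p-value, it called 1435 lower and 1469 higher, more than edgeR did. These include genes with few reads that the filter for edgeR left out, so the share is not like that of tested genes.

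Ligands of the selectins and the enzymes that glycosylate them gave 2 lower of 13 tested and none higher, with a median of -0.48. DESeq2 called 6 of them lower. Over all 20129 genes to which it gave a p-value it called 1435 lower, but these include low-count genes not tested by edgeR, so the shares are not alike. Those that edgeR called were the galactosyltransferase B4galt1 (62.5 ± 1.37 against 108 ± 20.2 CPM, SD, n = 3; edgeR adjusted p = 0.0299) and the fucosyltransferase Fut4 (6.45 ± 0.651 against 11.5 ± 0.778 CPM; adjusted p = 0.0493). A list that held both chemokine ligands of Ackr1 and other atypical receptors, such as Ackr3, gave 1 lower of 10 and none higher. Its median over ligands and receptors together was -1.44. The one that fell was Ccl11, eotaxin (228 ± 40.0 against 582 ± 164 CPM; log2 fold change -1.35, SE 0.23; edgeR adjusted p = 0.0243).

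A list for cytokine-activated endothelium also held cytokine receptors and NF-kB subunits. DESeq2 called 7 of its 16 tested genes lower. Over all 20129 genes to which DESeq2 gave a p-value it called 1435 lower, but these include low-count genes not tested by edgeR, so the shares are not alike. edgeR called 4 of the 16 lower and none higher, with a median of -0.83. Beside Icam1 these were the TNF receptors Tnfrsf1a (22.7 ± 2.48 against 43.4 ± 3.91 CPM, SD, n = 3; edgeR adjusted p = 0.0240) and Tnfrsf1b (24.8 ± 7.73 against 60.5 ± 16.0 CPM; adjusted p = 0.0350) and the inhibitor of apoptosis Birc3 (33.2 ± 5.74 against 62.6 ± 10.3 CPM; adjusted p = 0.0329). All 4 are expressed by leukocytes too. Sele, the classical cytokine-induced member, overlapped between groups.

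Other cell types in the tumours moved between the groups as well, and their values stand beside all results above. In the monocyte and macrophage list (median -1.85) Itgam (137 ± 39.8 against 745 ± 250 CPM, SD, n = 3; edgeR adjusted p = 0.0186) and Ccr2 (40.3 ± 15.6 against 177 ± 69.5 CPM; adjusted p = 0.0254) had the smallest p. In the dendritic cell list (median -2.56) they were Cd209a, a gene with close copies (7.93 ± 0.369 against 91.7 ± 64.7 CPM; adjusted p = 0.0253), and Xcr1 (1.79 ± 1.05 against 14.0 ± 5.82 CPM; edgeR adjusted p = 0.0259). edgeR did not call 4 of the 10 macrophage genes or 3 of the 9 dendritic cell genes.

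Transcripts of nerve were higher. Of 10 neuronal genes 6 rose and none fell (median 1.76), among them the neurofilament Nefh (349 ± 55.5 against 98.8 ± 29.7 CPM, SD, n = 3; edgeR adjusted p = 0.0186) and Snap25 (2138 ± 461 against 479 ± 171 CPM; adjusted p = 0.0194). Of 10 Schwann cell and myelin genes 7 rose and none fell (median 1.30), among them S100b (353 ± 54.5 against 131 ± 10.1 CPM) and Drp2 (1234 ± 306 against 333 ± 34.8 CPM), both with edgeR adjusted p = 0.0186. Summed neuronal levels were 6362, 5491 and 8706 CPM in tumours MiRNC149, MiRNC640 and MiRNC670 and 1446, 2669 and 1350 CPM in tumours Nf803, Nf809 and Nf827. Cadm3, the neighbour of Ackr1, is a gene of these cells, and the part of nerve content in the Ackr1 count was not tested.

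Fat and muscle varied by tumour. Summed adipocyte genes were 86.3, 1994 and 554 CPM in tumours MiRNC149, MiRNC640 and MiRNC670 and 311, 33.3 and 255 CPM in tumours Nf803, Nf809 and Nf827, and none of 6 genes was called (log2 fold changes of Cidec 2.31, SE 1.04, and Adipoq 2.18, SE 1.12). Tumour MiRNC640 was highest in adipocyte, capillary and pan-endothelial sums at once, and the part of adipocytes in the vessel sums was not tested. Summed skeletal muscle genes were 165, 286 and 1810 CPM against 27.4, 1589 and 5.56 CPM, and none of 6 was called (Myh4 0.82, SE 2.05, and Mylpf -0.35, SE 1.31, of which both signs turned without some tumours). None of 3 tested erythroid genes, relevant because red cell precursors can make Ackr1, was called, with summed levels of 69.1, 30.1 and 41.9 CPM against 27.6, 42.6 and 21.3 CPM. The erythroid genes with the smallest p were Alas2 (36.2 ± 11.7 against 22.8 ± 3.05 CPM, SD, n = 3) and Slc4a1 (7.73 ± 5.29 against 4.95 ± 4.53 CPM). None of 8 mast cell genes was called (Kit 0.44, SE 0.22, and Cma1 -0.87, SE 0.68). In these 4 lists DESeq2 and limma voom called 0 genes too, and at an unadjusted p under 0.05 edgeR had 1 erythroid gene higher and 0 in the others.

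**Figure D5:**
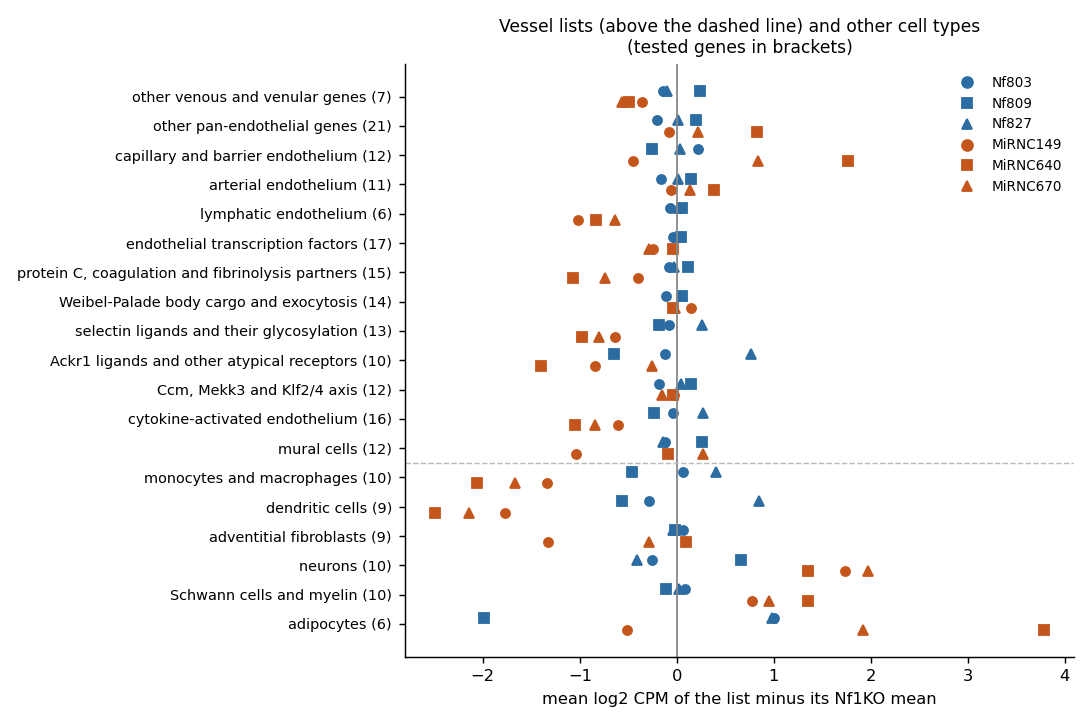
Mean log2 CPM of each list in each tumour minus its Nf1KO mean (horizontal axis), vessel lists above the dashed line and other cell types below it, with the number of tested genes in brackets. Pan-endothelial genes overlap between groups, with tumour MiRNC640 highest (0.83), dendritic and macrophage genes lie to the left in miR155KO_Nf1KO, and neuronal and Schwann cell genes to the right.

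The number of genes called changed with the tumours in the fit. A fit with 1 tumour left out also holds fewer tumours, and these reasons cannot be told apart. edgeR called no gene in either direction without tumour MiRNC670, Nf803 or Nf827 (3240, 3335 and 3265 genes had an unadjusted p under 0.05), and 99 higher and 43 lower without tumour MiRNC640, and no other tool was run with a tumour left out. The Ackr1 and Thbd calls were lost without tumour MiRNC670, Nf803 or Nf827 and kept without tumour MiRNC149, MiRNC640 or Nf809. With all 6 tumours, a fit with sex as a covariate lost the calls of Ppp1r1a, Fli1, Elk3, Myrip, Fut4, Ppap2b, Ccr2 and Dpp4, and limma voom lost those of Elk3, Fut4, Cd209a and Dpp4. Elk3 and Fut4 also lost theirs with a filter of CPM of at least 1 in 3 tumours, and Fut4 with total counts and with no low-count filter.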

How the data were processed

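RNA from 6 neurofibromas was isolated (Qiagen RNeasy Plus Micro) and made into libraries (Illumina Nextera XT), per the labels' protocols. The authors deposited 1 table of raw read counts per gene symbol. HISAT2 2.0.5, featureCounts 1.5.2 and mm10 were used, per the submitters' processing notes. The annotation, the strand setting and the handling of shared reads are not given in the sources used. The members and gene lists were chosen with earlier results of these data known.

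The 3 miR155KO_Nf1KO and 3 Nf1KO tumours, grouped by source name, were compared by edgeR 4.0.16 in R 4.3.3 (quasi-likelihood, two-sided, filterByExpr with minimum count 10 and minimum total 15, TMM scaling). Benjamini-Hochberg adjustment ran over all 15604 tested genes, and calls were made under 0.05. The fit was tested on simulated data. Among the members, counting error is small at these depths except for Sele and Plvap, so precision rests mainly on the spread between tumours. CPM uses the TMM-scaled library, and log2 CPM a prior count of 2. Replicate tumours differed by at least 23.17 times the Poisson variance, so none was counted as a repeat. Positions, exon lengths and 3′ UTRs came from GENCODE M21, in which all 10 members matched, and promoters and the microRNA from RefSeq.

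Named genes are the 10 members, up to 4 called genes per pathway list with the smallest p (or 2 where none was called), 2 or more per other cell type list, and the 3 genes most like Ackr1 and Thbd. Others are marked. Alternatives were other scalings and filters, DESeq2 1.42.0, limma 3.58.1 voom, sex as a covariate read from Xist and Y-linked counts, other reference genes, lengths and sites, and leaving out each tumour.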

Additional observations from a re-analysis of the deposited data

How the results depend on the processing

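With 1 tumour left out at a time, genes called higher (815) ran from 0 to 1183 and genes called lower (739) from 0 to 1059. Members called higher (1) ran from 0 to 1 and members called lower (1) from 0 to 2. Listed pathway genes called higher (3) ran from 0 to 7 and called lower (14) from 0 to 22. DESeq2 called 1469 genes higher and 1435 lower, with 8 pathway genes higher and 33 lower. With sex as a covariate 534 genes and 1 pathway gene were called higher. Upper quartile scaling, total counts, DESeq2 and limma voom each called 2 members lower, and the added member was Cd34. The cause of these shifts was not tested, except that fewer tumours enter a fit with 1 left out, where the groups hold 2 and 3. Signs turned for Sele (0.31 with sex as a covariate) and Mylpf (0.45 by limma voom). With 1 tumour left out, log2 fold changes turned sign for Sele (-2.05 to 0.45), Emcn (-0.56 to 0.12), Procr (-0.15 to 0.39), Myh4 (-1.12 to 7.12) and Mylpf (-1.78 to 2.74). So did the differences relative to the other endothelial transcripts for Vwf (-0.21 to 0.047) and Procr (-0.37 to 0.17). Over all alternatives and members, 6 values lost a call, 5 gained one and 124 kept side and sign. Over the other named genes these were 184, 24 and 697. The median log2 fold change of tested genes lay between -0.030 and 0.035 in every setting. No paired analysis was possible because the groups share no tumour number. Depth limits Sele, with 1 to 44 reads per tumour, and Plvap, with 17 to 63.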
